A study of Sus scrofa with 6 samples.

Results

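The 91 lncRNAs described here had at least 0.2 FPKM in all 3 samples of white skin and less than 0.1 FPKM in all 3 samples of black skin. FPKM is the number of sequenced fragments divided by transcript length and by the mapped fragments of the sample. The 91 made up 1.20% of the 7566 lncRNAs in the deposited table and 5.18% of the 1757 that had at least 0.2 FPKM in the 3 white samples. Chromosome Y was left out. The members were chosen by the white and black FPKM themselves, so the difference between the skins is a description for them and carries no test.

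LncRNAs are transcripts of more than a minimal length without a recognised protein-coding frame. Some act on the genes beside which they are transcribed, others act at a distance, and many have no assigned role. They are often made at a low level and in few cell types, and the assembly of a weakly covered lncRNA from short reads is less complete than that of an mRNA.

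RNA-seq was run on skin of 3 unrelated female Bama pigs aged 2 years, sampled to a depth of 8 mm. Each pig gave 1 sample of white skin from the back and 1 of black skin from the buttock, so that the 6 samples form 3 samples of each skin. Skin color and body site differed together in every pig and cannot be told apart. Each sample is a piece of whole skin, and fewer cells of a type and less RNA per cell cannot be told apart in it.

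The melanocyte list was in accord with the labels. Its 11 matched genes of 12, which mark pigment cells, summed to 7.95 to 11.0 FPKM in the white samples and 45.3 to 193.6 FPKM in the black samples, and 6 of them were called lower in white skin. The 6 matched keratinocyte markers, which identify epidermis, were found in all samples, with sums of 105.8 to 767.3 FPKM in white and 377.5 to 930.5 FPKM in black skin. The skins also differed in markers of other cells. Summed FPKM of 11 adipocyte markers was 347.7 to 782.4 in white and 1299 to 2776 in black skin, of 8 fibroblast markers 2562 to 5211 and 7488 to 11265, and of 3 endothelial markers 27.6 to 30.9 and 69.9 to 148.2. Of these, 6, 3 and 3 were called lower in white skin. The 7 skeletal muscle markers summed to 34.5 to 72.1 FPKM in white and 8.75 to 17.7 FPKM in black skin, which rests on CKM, a creatine kinase and the only one called, with 45.8, 66.2 and 28.0 FPKM in white and 1.40, 2.28 and 4.66 FPKM in black skin. Without CKM the sums were 6.33, 5.94 and 6.54 FPKM in white and 16.3, 7.33 and 4.09 FPKM in black skin, and the skins overlapped. The 6 matched sebaceous and sweat gland markers summed to 61.3 to 154.0 FPKM in white and 41.9 to 73.4 FPKM in black skin. These sums overlapped, and FA2H was the only gene of the list called, higher in white skin. In the hair follicle list of 9 keratin and cadherin genes the sum was 0.190 to 173.8 in white and 222.1 to 10157 in black skin, but 0 of them were called in the main fit, which left out the pig. With the pig as a block, limma called KRT82, KRT71, KRT73, KRT28 and KRT27 lower in white skin (adjusted p = 0.0233 to 0.0476). Single samples weighed heavily in the sums of this list. KRT25 had 90.6, 0.0352 and 59.1 FPKM in white and 4866, 209.0 and 110.6 FPKM in black skin of pigs 1, 2 and 3. The part of these differences in the members' values was not tested.

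White skin held more such lncRNAs than black skin. The same rule with the skins exchanged found 30 lncRNAs, 1.83% of the 1635 lncRNAs with at least 0.2 FPKM in the 3 black samples. Of the 1757 lncRNAs found in white skin, 1222 had no black sample below 0.1 FPKM, 284 had 1, 160 had 2 and 91 had 3. For the 1635 lncRNAs found in black skin these numbers were 1227, 266, 112 and 30. No test was run on the 2 numbers, and both depended on the thresholds. With a minimum of 0.5 FPKM they were 30 and 4, and with a minimum of 1 FPKM they were 9 and 3.

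The level of the members was low. Their mean FPKM over the 3 white samples had a median of 0.772 and ran from 0.300 to 5.24, with an interquartile range of 0.560 to 1.16. Among all 1757 lncRNAs found in white skin the median was 0.958. The median over the members was 0.628 FPKM in white skin of pig 1, 0.762 in pig 2 and 0.686 in pig 3. Summed over the members, white skin had 101.8, 99.6 and 105.8 FPKM in the 3 pigs, and black skin had 1.15, 0.616 and 0.584 FPKM. A mean of at least 1 FPKM was found for 29 members and of at least 2 FPKM for 12. Only 9 members had at least 1 FPKM in each white sample, and 2 had at least 2 FPKM in each.

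In black skin, 59 members were listed at 0 in all 3 samples, 20 in 2 samples, 7 in 1 sample and 5 in none. Of the 273 black values, 224 (82.1%) were listed at 0. Values above 0 were found for 23 members in pig 1, 14 in pig 2 and 12 in pig 3, and the highest was 0.0972 FPKM. A value of 0 does not show that a transcript is absent, because 59 lncRNAs of the whole table were listed at 0 in 1 sample and at 2 FPKM or more in both other samples of the same skin. No fold change is given for a member against black samples listed at 0.

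**Figure D1:**
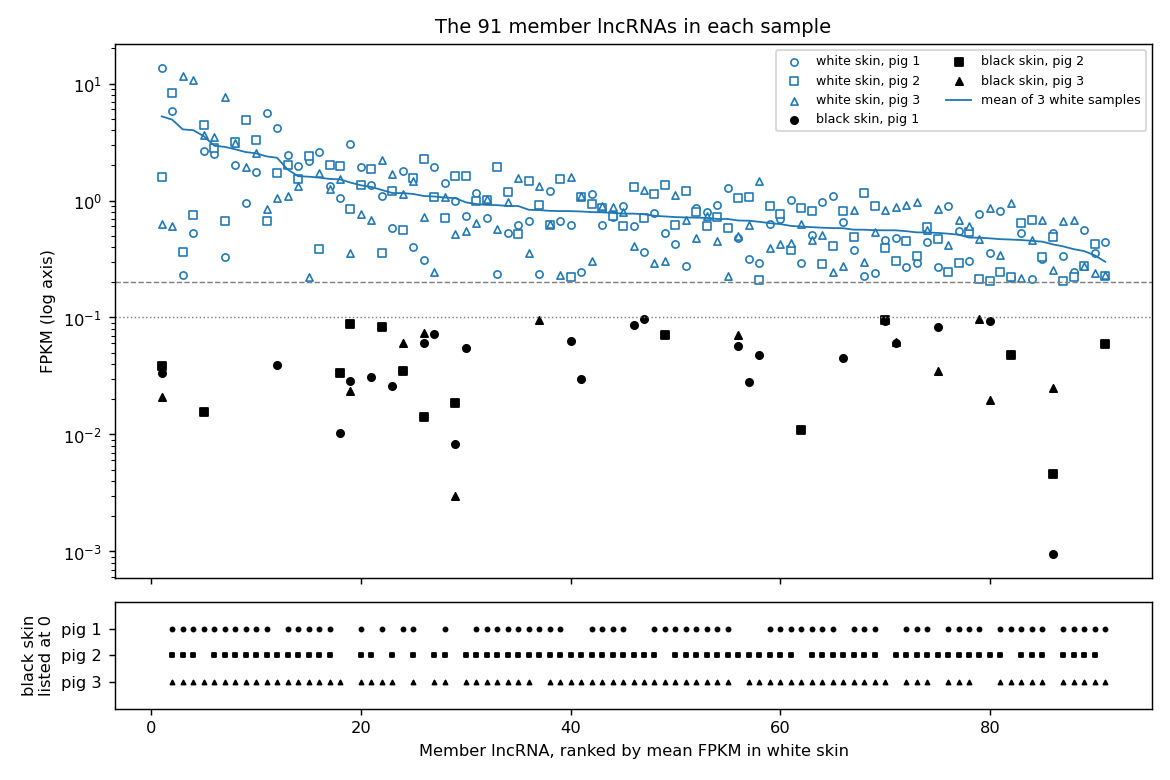
FPKM of the 91 members in each of the 6 samples, on a log axis, with members ranked by their mean in white skin. Open blue symbols are white samples, filled symbols are black samples above 0, the lower panel marks black samples listed at 0, the line is the mean of the 3 white samples, and the dashed and dotted lines are the limits of 0.2 and 0.1 FPKM. Most members lie near 1 FPKM or below in white skin, and 224 of the 273 black values are in the lower panel.

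The white values of a member often differed between pigs. The highest white value was a median of 3.15 times the lowest, with a range from 1.23 to 50.5 times. It was more than 5 times the lowest for 20 members (22.0%), against 11.9% of the 1757 lncRNAs found in white skin, and more than 10 times for 6 members. Pig 1 had the highest white value of 28 members, pig 2 of 34 and pig 3 of 29, so no white sample supplied most of the high values.

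The limma fit across all 7566 lncRNAs called 18 of the 91 members higher in white skin (19.8%), where it called 1.08% of all lncRNAs higher. Nothing is read from that count, since the rule used the same values. With the pig as a block 37 members were called, and with any of the 6 samples left out none was called by limma, while 83 had a p below 0.05 before adjustment in all 6 samples.

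The members just inside and just outside the limits had similar values. Just inside by their lowest white value were TCONS_00044758 (0.207 FPKM), TCONS_00009947 (0.207 FPKM) and TCONS_00029185 (0.207 FPKM), all in pig 2. Just outside were TCONS_00094020 (0.195 FPKM in pig 3), TCONS_00077044 (0.192 FPKM in pig 2) and TCONS_00012097 (0.192 FPKM in pig 3). Just inside by their highest black value were TCONS_00025568 (0.0972 FPKM), TCONS_00014234 (0.0963 FPKM) and TCONS_00010106 (0.0957 FPKM). TCONS_00012839 was left out for a black value of 0.102 FPKM in pig 1, and its white values were 3.18, 5.78 and 6.20 FPKM. TCONS_00062265 and TCONS_00073705 were left out for 0.104 and 0.105 FPKM in 1 black sample.

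The members were spread over the genome. All 18 autosomes and X held at least 1, and 1 member was on an unplaced scaffold. None of the 11 lncRNAs of the mitochondrial genome was a member. Chromosome 6 held the most with 11 members, followed by chromosome 8 with 8 and by chromosomes 1, 11, 13 and 14 with 7 each. Relative to the lncRNAs listed on the chromosome, chromosome 11 (3.11%) and chromosome 8 (2.42%) had the highest shares, and of the autosomes and X chromosome 12 had the lowest, with 1 member. On chromosome 8, 5 of the 8 members came from 1 locus, and on chromosome 11 there were 4 with no RefSeq protein-coding gene within 1 Mb.

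**Figure D2:**
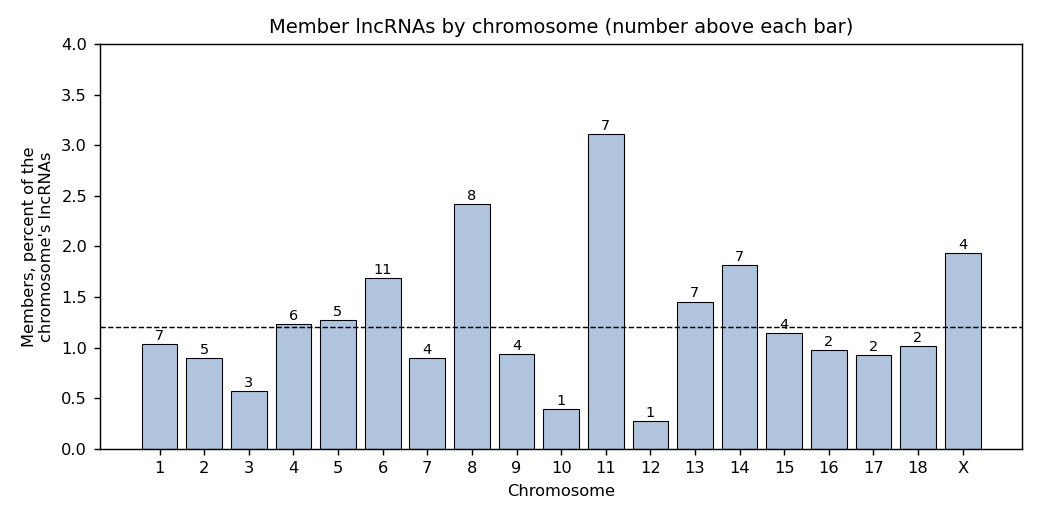
Members as a percent of the lncRNAs listed on each chromosome, with the number of members above each bar. The dashed line is the share over all lncRNAs, 1.20%, and chromosomes 11 and 8 have the tallest bars.

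The strands held similar numbers, with 45 members on the plus and 46 on the minus strand. The plus strand held 51.0% of all lncRNAs. From the first to the last listed position the members spanned a median of 1088 bp, against 972 bp for the 1757 lncRNAs found in white skin and 500 bp for all 7566. The value of 1088 bp is the span shared by 4 transcripts of 1 locus, and with 1 member per overlapping locus (82 members) the median was 704 bp. The 1757 were not reduced in the same way, so 704 bp has no matching value among them. The longest spans were more frequent among the members, which was not tested. A span of at least 5 kb was found for 27 members (29.7%), against 21.2% of the 1757, and a span of at least 100 kb for 7 members (7.69%), against 1.94%. These 7 included the 2 members at one locus beside MEF2C. At the other end, 16 members (17.6%) spanned less than 200 bp, the usual lower limit for a lncRNA, against 13.8% of the 1757. The span is taken from the listed positions and is not the length of the spliced transcript.

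The longest member was TCONS_00028191, which covers 290234 bp on the minus strand of chromosome 13 (87417187 to 87707420). It had 0.273, 1.19 and 0.682 FPKM in white skin of pigs 1, 2 and 3 and was listed at 0 in the 3 black samples. The shortest was TCONS_00010106, 32 bp on the minus strand of chromosome 1 (273901045 to 273901076). Its white values were 0.455, 0.392 and 0.823 FPKM and its black values 0.0941, 0.0957 and 0. Its listed span is shorter than the sequenced reads, and its value is uncertain.

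**Figure D3:**
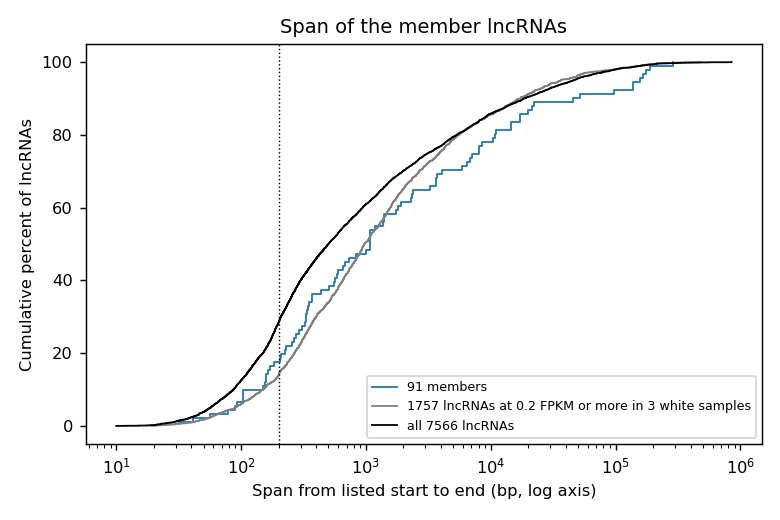
Cumulative percent of lncRNAs by span in bp, on a log axis, for the 91 members, the 1757 lncRNAs with at least 0.2 FPKM in 3 white samples, and all 7566 lncRNAs. The dotted line marks 200 bp. The curve of the members follows that of the 1757 up to about their median and lies below it at longer spans.

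Many members were 1 of several transcripts of a locus. Another lncRNA overlapped 51 members (56.0%), against 46.1% of the 1757, and all 51 were overlapped on their own strand by a lncRNA that was not a member. Protein-coding genes of the RefSeq table overlapped 22 of the 90 members placed on chromosomes (24.4%), against 47.9% of the 1757, and lncRNA genes of that table overlapped 32 (35.6%), against 31.5%. No gene of either kind overlapped 45 members. Where several transcripts of a locus share reads, the division of the FPKM between them is an estimate, so the low black value of 1 transcript does not describe its locus.

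The values were therefore summed over each member and the lncRNAs that overlap it on the same strand. For 45 of the 51 members the sum reached 0.1 FPKM in at least 1 black sample, and for 6 it stayed below. Every white sum was above every black sum for 40 of the 51, and the skins overlapped for 11. Each sum includes the member's own values, which the rule chose to be higher in white skin. That favours white sums above black sums, so nothing is read from the 40. Members of 1 locus can also share the same sum. Of all lncRNAs taken singly and without that choice, 6.87% had every white sample above every black sample. The other 40 members had no overlapping lncRNA on their strand. In all, 46 members belonged to a locus that stayed below 0.1 FPKM in the 3 black samples, and for the remaining 45 the label of a lncRNA found only in white skin holds for the transcript but not for the locus.

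**Figure D4:**
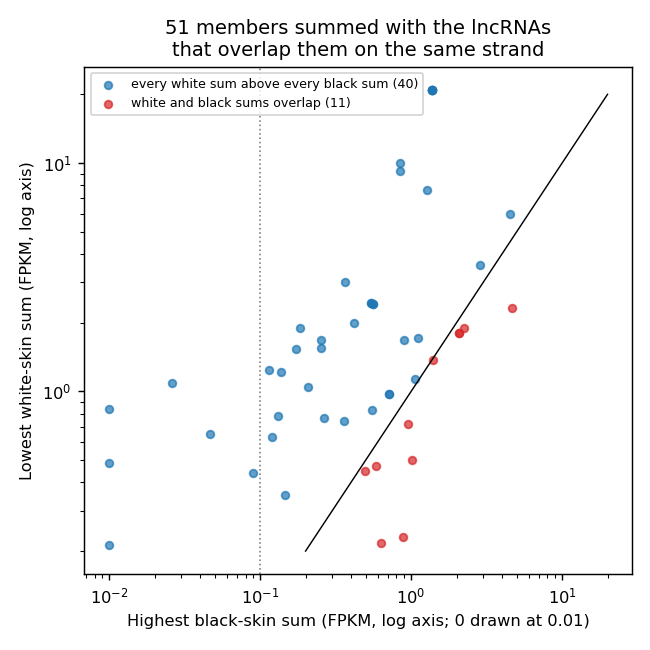
Lowest white sum against highest black sum, in FPKM on log axes, for the 51 members that overlap another lncRNA on their strand, each point being 1 member summed with those lncRNAs. The line marks equal sums and the dotted line 0.1 FPKM in black skin. The 40 blue points lie above the line, and the 11 red points lie on or below it.

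When members within 100 kb of each other were joined, the 91 fell into 75 loci. In 11 loci there were 2 or more members, 27 in all, and 64 members stood alone. These loci held most of the highest values. Of the 12 members with the highest mean in white skin, 9 shared a locus with another member.

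The locus with the most members was on the minus strand of chromosome 8 (79658141 to 79846513), within the span of the RefSeq lncRNA gene LOC110262142. It held TCONS_00105898, TCONS_00105909, TCONS_00105910, TCONS_00105911 and TCONS_00105912, of which the last 4 share a start and an end. TCONS_00105911 had 2.51, 2.79 and 3.52 FPKM in the white samples. TCONS_00105909 had 2.00, 3.15 and 3.08 FPKM, TCONS_00105910 had 1.75, 3.29 and 2.55 FPKM, and TCONS_00105912 had 0.956, 4.88 and 1.95 FPKM. All 5 were listed at 0 in each black sample. Together they had 8.43, 14.7 and 11.7 FPKM in white skin. The 9 other lncRNAs of the locus had 18.6, 46.6 and 9.23 FPKM in white and 0.634, 1.37 and 0.357 FPKM in black skin, so the whole locus was low, but not at 0, in black skin.

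A locus on the plus strand of chromosome 4 held the 2 members with the highest mean, both within the RefSeq lncRNA gene LOC106509954. TCONS_00070461 (12817976 to 12826082) had 13.5, 1.59 and 0.624 FPKM in white skin and 0.0333, 0.0386 and 0.0208 FPKM in black skin. TCONS_00070460 (12807617 to 12807883) had 5.84, 8.27 and 0.611 FPKM in white skin and was listed at 0 in black skin. Pig 3 had the lowest white value of both, and the highest value was in pig 1 for one and in pig 2 for the other. With the lncRNAs that overlap it, TCONS_00070461 reached 0.894 FPKM in black skin of pig 1.

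On the plus strand of chromosome 6 (129971484 to 129988763), TCONS_00088035 and TCONS_00088032 were high in 1 pig only. TCONS_00088035 had 0.229, 0.363 and 11.6 FPKM in the white samples. TCONS_00088032 had 0.528, 0.758 and 10.7 FPKM. Both were listed at 0 in the 3 black samples, and their means rest on pig 3. The 3 other lncRNAs of the locus were high in the same sample, with 0.219, 0.235 and 6.20 FPKM in white skin, and had 0, 0.718 and 0 FPKM in black skin.

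The members on the plus strand of chromosome 15 were more even. TCONS_00037811 (24005279 to 24016022) had 2.64, 4.42 and 3.60 FPKM in white skin and 0, 0.0156 and 0 FPKM in black skin. TCONS_00037813, which ends at the same position, had 2.17, 2.41 and 0.221 FPKM in white skin and was listed at 0 in black skin. TCONS_00037811 was 1 of the 2 members with at least 2 FPKM in each white sample, and TCONS_00105911 was the other.

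Other loci with several members were lower. On chromosome 11 (72581413 to 72643855), TCONS_00013778, TCONS_00013780 and TCONS_00014962 summed to 2.08, 3.85 and 2.06 FPKM in white skin and to 0, 0.0712 and 0 FPKM in black skin. These 3 and TCONS_00013790, on the same chromosome, were the 4 far from any RefSeq protein-coding gene, of which SLC10A2 was the nearest. On chromosome 13 (130836892 to 130889140), TCONS_00028817, TCONS_00024899 and TCONS_00024902 summed to 2.73, 3.55 and 5.44 FPKM in white skin and to 0.0365, 0.117 and 0 FPKM in black skin. The sums of 2 members on chromosome 5, TCONS_00080263 and TCONS_00080266, were 1.66, 1.40 and 1.21 FPKM in white skin, and those of TCONS_00088887 and TCONS_00088889 on chromosome 6 were 0.810, 1.34 and 1.07 FPKM. Both pairs were listed at 0 in black skin.

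On chromosome 14, TCONS_00030358 and TCONS_00030361 lie within PEBP4 and summed to 1.68, 1.03 and 1.39 FPKM in white skin and to 0 in black skin. The mRNA of PEBP4, a phosphatidylethanolamine-binding protein, was not called, with a mean of 10.3 FPKM in white and 10.2 FPKM in black skin and overlapping samples (adjusted p = 0.940 in limma). On chromosome 9, TCONS_00110335 and TCONS_00110336 lie within P2RY2, a receptor for extracellular nucleotides, and summed to 3.76, 2.09 and 2.46 FPKM in white skin and to 0, 0.0352 and 0.0604 FPKM in black skin. P2RY2 had 9.76, 23.8 and 0.787 FPKM in white and 1.83, 2.83 and 1.20 FPKM in black skin. The white sample of pig 3 was below all black samples, the skins overlapped, and limma gave an adjusted p of 0.307 (Benjamini-Hochberg).

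Of the 12 members with the highest mean, 3 stood alone. TCONS_00078852 (chromosome 5, 60810394 to 60810556, within the RefSeq lncRNA gene LOC106507269) had 0.332, 0.664 and 7.63 FPKM in white skin and was listed at 0 in black skin, so that its mean also rests on pig 3. TCONS_00066028 (chromosome 3, 7866992 to 7867245) had 4.20, 1.71 and 1.04 FPKM in white skin and 0.0389, 0 and 0 FPKM in black skin. TCONS_00037522 (chromosome 14, 140637474 to 140637514), 41 bp long within PWWP2B, had 5.64, 0.663 and 0.848 FPKM in white skin and was listed at 0 in black skin. The lncRNA that overlaps TCONS_00037522 was not low in black skin, with summed values of 2.08, 4.65 and 1.21 FPKM.

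Only 1 member carried an Ensembl gene identifier, and the other 90 were assembled by the authors. This member, ENSSSCG00000035571, covers 137542 bp on the plus strand of chromosome 2 (96297437 to 96434978) and lies 510 bp from MEF2C, a transcription factor of muscle and other lineages. It had 0.356, 0.424 and 0.239 FPKM in white skin and was listed at 0 in black skin. TCONS_00054975 covers almost the same stretch and had 0.524, 0.636 and 0.217 FPKM in white skin and was listed at 0 in black skin. The 4 other lncRNAs of the locus had 0.967, 0.908 and 1.35 FPKM in white and 0.434, 2.06 and 1.03 FPKM in black skin, so at the level of the locus the skins overlapped. MEF2C itself had 6.37, 13.1 and 9.19 FPKM in white and 7.65, 4.84 and 9.71 FPKM in black skin and was not called by limma (adjusted p = 0.530).

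The mRNAs beside the members were tested in the limma fit across all 14900 mRNAs, in which a call needed a Benjamini-Hochberg adjusted p of less than 0.05 and a log2 fold change beyond 1 in either direction. A log2 fold change is white minus black skin on log2(FPKM + 0.5), which understates the change of genes with low FPKM. These mRNAs were measured in the same 6 libraries that chose the members. A locus is listed in the supplement of the study for 2692 mRNAs (18.1%), largely genes that differed between the skins, and 16.5% of these were called lower and 4.53% higher in white skin. Over all mRNAs, 3.62% were called lower and 2.62% higher.

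The nearest mRNA with a listed locus lay a median of 368.6 kb from a member, against 185.5 kb for all lncRNAs. It overlapped 2 members, lay within 10 kb of 5 and within 100 kb of 20. The 20 members had 19 nearest mRNAs within 100 kb, of which 2 (10.5%) were called higher, 1 (5.26%) was called lower and 16 were not called. Their median log2 fold change was 0.61, against -0.97 for the nearest listed mRNAs within 100 kb of all lncRNAs. The sign depended on which neighbours were taken. Over every listed mRNA within 100 kb of a member, 29 in all with 2 called higher and 4 lower, the median was -0.32, and over the nearest mRNAs by RefSeq positions it was -0.22, against -0.37 for all lncRNAs. Within 1 Mb, 61 nearest mRNAs were found, of which 3 were called higher and 9 (14.8%) lower, and the median was -0.77. Of the nearest listed mRNAs within 1 Mb of all lncRNAs, 4.85% were called higher and 17.4% lower. The lower number depended on the scaling. With upper-quartile scaling 4 of the 61 were called higher and 4 lower, and with quantile normalization 3 and 3.

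ANKRD9, an ankyrin repeat protein, and SOD1, the cytosolic superoxide dismutase, were the 2 called higher. ANKRD9 had 5.74, 7.69 and 6.96 FPKM in white and 3.09, 2.11 and 2.15 FPKM in black skin (log2 fold change 1.31, SE 0.266, adjusted p = 0.0323) and lies 12762 bp from TCONS_00114330, the member on an unplaced scaffold. SOD1 had 275.7, 383.4 and 245.2 FPKM in white and 107.7, 96.3 and 144.2 FPKM in black skin (log2 fold change 1.37, SE 0.255, adjusted p = 0.0273) and lies 92408 bp from TCONS_00025769 on chromosome 13. In both genes all white samples were above all black samples. TCONS_00114330 had 0.295, 0.867 and 0.635 FPKM in white skin, and TCONS_00025769 had 0.236, 1.93 and 0.575 FPKM. With the lncRNAs that overlap it on its strand, TCONS_00114330 summed to 0.501, 1.06 and 0.635 FPKM in white skin. In black skin these sums were 0.850, 0.536 and 1.02 FPKM, so at the level of the locus the skins overlapped.

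COL5A1, a chain of type V collagen of the dermis, was the 1 called lower, with 17.7, 13.2 and 7.47 FPKM in white and 32.5, 36.7 and 43.7 FPKM in black skin (log2 fold change -1.59, SE 0.321, adjusted p = 0.0321). It lies 55267 bp from TCONS_00010106 by its listed locus and 33143 bp by RefSeq positions. The fibroblast markers given above were lower in the same white samples.

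The 2 members that overlap a listed mRNA lie within genes of transcription factors. TCONS_00105913 (chromosome 8, 80290511 to 80304967) lies in NR3C2, which encodes the mineralocorticoid receptor, and had 0.785, 1.14 and 0.293 FPKM in white skin and 0 in black skin. NR3C2 had 3.42, 4.76 and 2.37 FPKM in white and 0.920, 1.76 and 1.73 FPKM in black skin, with all white samples above all black samples and an adjusted p of 0.102 in limma. TCONS_00093456 (chromosome 6, 91761639 to 91765299) lies in TFAP2E, which encodes AP-2 epsilon, and had 0.524, 0.486 and 0.254 FPKM in white skin and 0.000955, 0.00458 and 0.0248 FPKM in black skin. TFAP2E had 4.49, 5.57 and 3.02 FPKM in white and 1.64, 3.74 and 1.43 FPKM in black skin, which overlapped.

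Of the 3 other members within 10 kb of a listed mRNA, TCONS_00014339 lies 1956 bp from SMAD9, a mediator of BMP signals. It had 0.318, 0.330 and 0.687 FPKM in white skin and 0 in black skin, whereas SMAD9 had lower values in all white samples but was not called, with 1.40, 1.04 and 1.67 FPKM in white and 1.96, 4.37 and 5.11 FPKM in black skin (adjusted p = 0.0958). TCONS_00072968 lies 5140 bp from CFAP276, whose values overlapped between the skins, and had 0.550, 0.295 and 0.688 FPKM in white skin. None of the 5 listed mRNAs within 10 kb was called by limma, and at an unadjusted p below 0.05 with the same fold limit 1 was higher and 1 lower.

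The last of them, TCONS_00050579, lies within HOXA3 in the HOXA cluster on chromosome 18 (45462251 to 45463441) and had 0.421, 0.623 and 1.12 FPKM in white skin and was listed at 0 in black skin. The lncRNA that overlaps it brought the locus to 0.565, 1.06 and 0.207 FPKM in black skin. HOX genes record position along the body axis, and the white and black samples came from different positions. HOXA3 and HOXA2, the genes nearest to the member, were not called (adjusted p = 0.355 and 0.511). HOXA9, HOXA10 and HOXA11, which belong to the posterior end of the cluster and share a listed locus 49612 bp away, were called lower in white skin. HOXA9 had 5.66, 5.36 and 3.42 FPKM in white and 21.9, 53.1 and 31.5 FPKM in black skin (log2 fold change -2.70, SE 0.355, adjusted p = 0.0124). The log2 fold changes of HOXA10 and HOXA11 were -2.90 and -1.92.

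Since most mRNAs have no listed locus, the members were also placed beside the 11394 mRNAs with a position in the RefSeq gene table of the same build, of which 2.62% were called higher and 4.08% lower. The nearest of these lay a median of 33.0 kb from a member, against 10.8 kb for all lncRNAs, and overlapped 18 of 90 members. Within 10 kb, 28 nearest mRNAs were found. Of these 4 (14.3%) were called higher, and limma called none lower (1 at an unadjusted p below 0.05). Among the mRNAs nearest to any lncRNA within 10 kb, 2.99% were called higher and 5.16% lower. This window was chosen after the values were seen, the 4 calls are few, and with 1 sample left out the number of calls ranged from 1 to 5. Within 100 kb, 5 of 53 nearest mRNAs were called higher and 1 lower.

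The 4 were MGST1, PLCB4, AADACL3 and CPEB3. MGST1, the microsomal glutathione S-transferase, lies 1779 bp from TCONS_00081723 on chromosome 5 and was the most abundant. It had 1007, 1086 and 983 FPKM in white and 209.8, 146.4 and 152.7 FPKM in black skin (log2 fold change 2.61, SE 0.222, adjusted p = 0.00563), with a narrow range in both skins. It was the 1 mRNA near a member that stayed called with any of the 6 samples left out. TCONS_00081723 itself was weak, with 0.233, 0.911 and 1.34 FPKM in white skin and 0, 0 and 0.0949 FPKM in black skin.

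PLCB4, a phospholipase C of signals from G protein-coupled receptors, lies 8124 bp from TCONS_00045065 on chromosome 17. It had 26.9, 42.6 and 33.0 FPKM in white and 4.67, 6.20 and 9.41 FPKM in black skin (log2 fold change 2.28, SE 0.304, adjusted p = 0.0124). TCONS_00045065 had 1.09, 0.408 and 0.247 FPKM in white skin and 0 in black skin, and was highest in pig 1, whereas PLCB4 was highest in pig 2. Without white skin of pig 2, PLCB4 was no longer called (adjusted p = 0.0652).

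AADACL3, of the arylacetamide deacetylase family, had the largest change of the called mRNAs within 100 kb of a member. It had 68.1, 107.3 and 24.0 FPKM in white and 3.50, 5.80 and 0.830 FPKM in black skin (log2 fold change 4.13, SE 0.676, adjusted p = 0.0200) and lies 6397 bp from TCONS_00092547 on chromosome 6. The order of the pigs was the same in both skins, and the adjusted p fell to 0.00237 under the block for the pig. TCONS_00092547 had 1.40, 0.713 and 1.07 FPKM in white skin and 0 in black skin.

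CPEB3, a protein that binds mRNAs, had 8.50, 5.06 and 4.26 FPKM in white and 1.45, 1.42 and 1.96 FPKM in black skin (log2 fold change 1.56, SE 0.318, adjusted p = 0.0325). It is overlapped by TCONS_00032935 on chromosome 14 (103845268 to 103845639), which had 0.623, 0.862 and 0.892 FPKM in white skin and was listed at 0 in black skin. The order of the white samples differed between CPEB3 and its lncRNA. CPEB3 was not called with any 1 of the 6 samples left out (adjusted p = 0.0545 to 0.123).

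The other called mRNAs within 100 kb by RefSeq positions were RBM47, which was the nearest to its member, and genes with another mRNA closer to the member. UPB1, an enzyme of pyrimidine breakdown, lies 205 bp from TCONS_00035247 on chromosome 14 and had 1.45, 1.04 and 2.40 FPKM in white and 0.0679, 0 and 0 FPKM in black skin (log2 fold change 1.98, SE 0.310, adjusted p = 0.0181). Its lncRNA had 0.290, 0.337 and 0.976 FPKM in white skin and 0 in black skin. In both, pig 3 had the highest white value. The same member overlaps ADORA2A, an adenosine receptor, which was not called, with 0.826, 0.650 and 0.281 FPKM in white and 1.44, 0.956 and 0.625 FPKM in black skin.

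ZIC1, a zinc finger transcription factor, lies 33349 bp from the longest member, TCONS_00028191, on chromosome 13. It had 6.04, 11.3 and 8.04 FPKM in white and 1.83, 3.07 and 2.20 FPKM in black skin (log2 fold change 1.62, SE 0.313, adjusted p = 0.0289), and its pigs had the same order in white skin as the lncRNA. With the lncRNAs that overlap it on its strand, TCONS_00028191 reached 0.494 FPKM in black skin of pig 3. The lowest white sum was 0.450 FPKM, so at the level of the locus the skins overlapped. BEND6, a protein with a BEN domain, lies 3827 bp from TCONS_00096144 on chromosome 7 and had 5.99, 4.39 and 6.40 FPKM in white and 1.45, 1.55 and 2.65 FPKM in black skin (log2 fold change 1.37, SE 0.303, adjusted p = 0.0401). The lncRNA that overlaps TCONS_00096144 brought its locus to 2.85, 1.81 and 0.934 FPKM in black skin. In white skin the locus had 3.57, 9.79 and 3.59 FPKM. RBM47, an RNA-binding protein, lies 51943 bp from TCONS_00103067 on chromosome 8 and had 7.25, 7.78 and 5.11 FPKM in white and 1.69, 3.25 and 2.44 FPKM in black skin (log2 fold change 1.30, SE 0.306, adjusted p = 0.0466). None of ZIC1, BEND6 and RBM47 stayed called with any 1 sample left out, and the same held for SOD1.

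**Figure D5:**
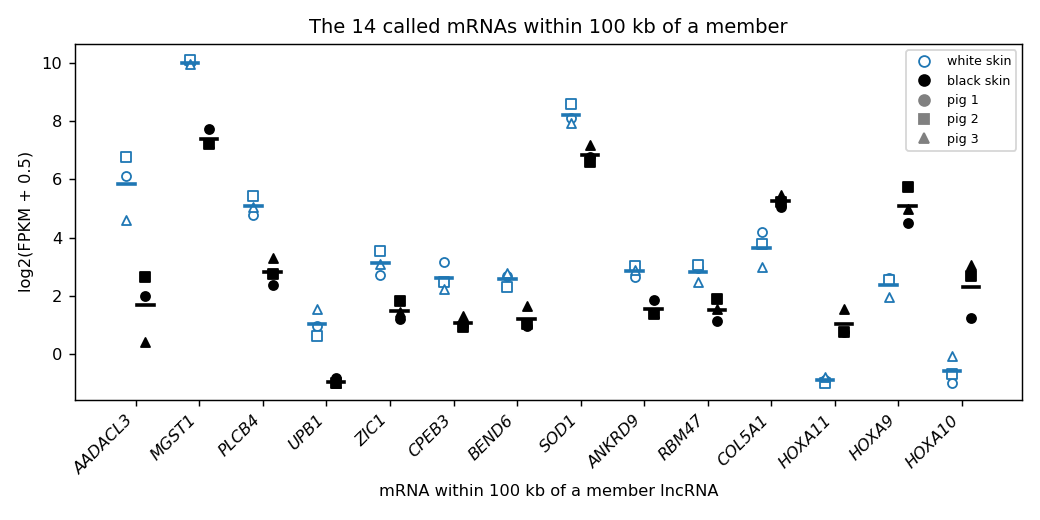
Level of the 14 called mRNAs within 100 kb of a member, as log2(FPKM + 0.5), in the 3 white (open) and 3 black (filled) samples, with symbols for the pigs and bars for the means of 3. The 14 are pooled from every mRNA within 100 kb by listed or RefSeq positions, nearest or not. They are no share of the sets of neighbours counted in the text and are not set against the shares over all mRNAs. The 10 mRNAs on the left, from AADACL3 to RBM47, are higher in every white sample, and COL5A1, HOXA11, HOXA9 and HOXA10 are lower in every white sample.

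DTX2, a ubiquitin ligase of the deltex family, lies 3485 bp from TCONS_00066245 and was at the limit, with 16.4, 23.5 and 10.5 FPKM in white and 7.16, 6.30 and 5.06 FPKM in black skin (log2 fold change 1.32, SE 0.320, adjusted p = 0.0503). With the pig as a block it was called (adjusted p = 0.0341). Of the 16 nearest mRNAs that RefSeq places over a member, 1 (6.25%) was called higher and 0 lower. Over any lncRNA, 2.63% were called higher and 5.27% lower. PRRX1, a transcription factor of connective tissue, has TCONS_00071405 (157509 bp) across it and had 39.1, 30.9 and 25.6 FPKM in white and 37.7, 35.7 and 36.9 FPKM in black skin. The 16 nearest mRNAs that RefSeq places over a member had a median log2 fold change of 0.05, against -0.38 for those over any lncRNA, and CPEB3 was the only one called. The median over all mRNAs was -0.31, and it was -0.03 after quantile normalization, which shifts each of these values. All white samples were above all black samples for 9.62% of the 14900 mRNAs and below them for 25.7%. The 14 called mRNAs were chosen by limma on the same 6 samples, so their separation is not set against these shares.

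The calls rested on single samples to different degrees. HOXA9 was lost without white skin of pig 2, and HOXA11 without white skin of pig 1 or pig 2. AADACL3 was lost without white skin of pig 1, white skin of pig 2 or black skin of pig 3, with adjusted p from 0.0314 to 0.0902 over the 6 fits that left out 1 sample. UPB1 and HOXA10 were lost without white skin of pig 1 or 2 or black skin of pig 2 or 3. COL5A1 stayed called only without white skin of pig 1, and ANKRD9 only without black skin of pig 1. The log2 fold change kept its direction in every one of these fits.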

How the data were processed

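RNA-seq of poly(A) RNA from 6 pig skin samples was taken as deposited. The authors sequenced strand-specific libraries, mapped the reads to Sscrofa11.1 (TopHat in the methods, HISAT2 2.0.4 in the submitters' processing notes), assembled lncRNAs, removed coding transcripts, and calculated the deposited FPKM values with StringTie 1.3.3. They kept lncRNAs above 0.1 and mRNAs above 0.5 FPKM in at least 1 sample. Without counts in the files, the reads behind a value are unknown, and counting error could not be computed. Authors' fold changes and p-values in the supplement were not used.

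The members and the gene lists were chosen with earlier results of these data known. Skins were compared with limma 3.58.1 (R 4.3.3, trend option) after adding 0.5 to mRNA and 0.1 to lncRNA FPKM and taking log2, with p adjusted over all features (Benjamini-Hochberg), and the model was tested on simulated data. The numbers of the samples mark the pig from which both skins came. Deviations from the skin means correlated within each pig, with r from 0.204 to 0.360 over mRNAs and 0.101 to 0.148 over lncRNAs. The main fit left out the pig, as the study did. P-values use the spread over the 3 samples of each skin, which limma moves towards that of features with a similar level. For the lncRNAs this borrowed spread weighed heavily, so their p-values do not measure the spread over 3 pigs alone. TCONS_00080263, with 0.791, 0.609 and 0.730 FPKM in white and 0 in black skin, had an SE of 1.04. Positions of mRNAs came from the study's supplement, whose starts were raised by 1 base, and from RefSeq (Sscrofa11.1). Distances are to the nearest edge, without strand.

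Named members are the 12 highest, the longest and shortest, the annotated one, those within 10 kb of a listed mRNA, those that share a locus and those at the limits, with other members named for their neighbours. Named mRNAs lie within 10 kb of a member or, when called, within 100 kb. Counts ran in Python 3.11.15 with pandas 2.3.3. Alternatives were other limits, pseudocounts, scaling, a filter, a block for the pig and leaving out each sample.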

Additional observations from a re-analysis of the deposited data

How the results depend on the processing

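The number of members followed the limits. It was 137, 30 and 9 with a white minimum of 0.1, 0.5 and 1 FPKM, 162 with a black maximum of 0.2 FPKM, 59 with every black sample listed at 0, and 133 to 180 with 1 sample left out. The mirror rule gave 89, 4 and 3 with the same minimums, 18 and 76 with a white maximum of 0.05 and 0.2 FPKM, 17 with every white sample listed at 0, and 56 to 108 with 1 sample left out. Upper-quartile scaling gave 99 and 22. With 1 member per overlapping locus (82 members) the median span was 704 bp.

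Pairing added calls among the members and among some sets of mRNAs near them. Of the nearest mRNAs within 100 kb by RefSeq positions, 6 were called higher with the pig as a block, against 5. Of the nearest listed mRNAs within 1 Mb, 4 were called higher and 13 lower, against 3 and 9. Without the block, upper-quartile scaling gave 4 and 4 for this set, and quantile normalization 3 and 3. With the pig as a replicate block 37 members were called higher, against 18. Without the trend 5 were called, with the filter, which kept 29 members, 4, with p before adjustment 83, and with 1 sample left out 0 each time. For the nearest listed mRNAs within 100 kb, 2 called higher and 1 lower, the block changed neither number. It lost none of the 14 mRNAs called within 100 kb, which the main fit had chosen, so that no call could be gained among them. The higher number was 0 within 10 kb, 5 with RefSeq positions, 4 with RefSeq positions within 10 kb (an alternative added after the data were seen), 4 with p before adjustment, and 0 to 3 with 1 sample left out. The lower number was 0 within 10 kb, 9 within 1 Mb, 0 with RefSeq positions within 10 kb, 4 over every mRNA in the window, 6 with p before adjustment, and 0 to 2 with 1 sample left out. Of the 14 called mRNAs, 14 stayed called under both other pseudocounts, both other scalings and without the trend, and 1 to 8 with 1 sample left out. No direction was reversed. HOXA11 and UPB1 were not in the filtered fit. The cause of these changes was not tested.

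FPKM of transcripts that share reads, spans under the read length and unknown depth limit single values.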
